A study of Mus musculus with 6 samples.

Results

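The 3 control libraries of the study, out of 6 libraries in all, were described gene by gene as a reference transcriptome of embryonic brain endothelium. They were chosen by their labels alone, as the libraries with wildtype Axin1, and their deposited read counts and RPKM values (reads per kilobase of gene length, scaled to library size) were read for all 22958 gene entries. The study asked how brain endothelium changes when Axin1, a negative regulator of beta-catenin, is overexpressed, and the 3 Axin1 libraries were not analysed here. Cells of control embryos came from the brain at stage E11.5, in a C57BL/6 x 129/Sv background, and were sorted as CD31+, PECAM1+. The genetic modification of the controls was given as Cdhrs5CreERT2:R26Axin1IL-/-, a name that contains the tamoxifen-inducible Cre recombinase CreERT2 and an Axin1 allele at the R26 locus, without the allele being present. Tamoxifen was given to the mother at embryonic day 9.5 for these embryos too, so the baseline is that of tamoxifen-exposed embryos. The labels call the libraries biological replicates 1, 2 and 3 (here controls 1, 2 and 3). Their titles carry the numbers 1813, 1814 and 2198 in turn, which do not by themselves name a batch. The labels do not say how many embryos entered a library or whether litters were shared, so all spreads are those between these 3 libraries.

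Blood vessels grow into the neural tube from a plexus on its surface, led by VEGF signalling. Wnt ligands released by neural progenitors act on Frizzled receptors of the ingrowing endothelial cells, stabilise beta-catenin and switch on barrier properties such as the glucose transporter GLUT1 (encoded by Slc2a1) and tight junction proteins. Endothelial cells of this stage are still dividing and migrating, and the vessels lie among primitive erythroid cells, macrophages and platelet precursors.

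Promoter windows of 4 genes described here are printed first, so that the sequence composition compared further on can be seen in genes at different levels. Each is the 250 bases before the annotated start, 5′ to 3′ on the gene's strand, from RefSeq on GRCm38.p6. Capitals mark matches on either strand to the TATA box (TATAAA), the CCAAT box, the GC box (GGGCGG), an ETS-type motif (CCGGAAGT) and the cAMP response element (TGACGTCA). Matches read on the other strand are capitalised in their complementary letters. Sparc was the highest and most even of the 5 endothelial markers, Slc2a1 the highest of the listed barrier transporters, Kdr the leading VEGF receptor, and Cldn5 the listed junction gene with the widest spread among those with at least 10 CPM. The windows lie at chr11:55420081-55420330 (minus strand), chr4:119108495-119108744 (plus), chr5:75978456-75978705 (minus) and chr16:18776597-18776846 (plus). Pecam1 and Cdh5 are named only.
Sparc: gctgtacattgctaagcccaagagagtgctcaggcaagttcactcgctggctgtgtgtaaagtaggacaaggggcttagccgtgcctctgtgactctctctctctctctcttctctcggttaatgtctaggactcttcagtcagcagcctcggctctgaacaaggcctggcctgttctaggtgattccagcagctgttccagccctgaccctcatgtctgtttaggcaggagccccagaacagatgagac
Slc2a1: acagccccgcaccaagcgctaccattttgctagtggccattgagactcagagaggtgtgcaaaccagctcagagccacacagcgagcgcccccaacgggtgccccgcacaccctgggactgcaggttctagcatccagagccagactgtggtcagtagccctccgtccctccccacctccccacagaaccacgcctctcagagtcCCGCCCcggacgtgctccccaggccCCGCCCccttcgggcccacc
Kdr: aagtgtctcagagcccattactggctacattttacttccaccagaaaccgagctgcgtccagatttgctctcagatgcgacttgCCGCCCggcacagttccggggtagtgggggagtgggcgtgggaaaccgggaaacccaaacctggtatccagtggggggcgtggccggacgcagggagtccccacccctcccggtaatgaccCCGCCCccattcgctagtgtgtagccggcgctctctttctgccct
Cldn5: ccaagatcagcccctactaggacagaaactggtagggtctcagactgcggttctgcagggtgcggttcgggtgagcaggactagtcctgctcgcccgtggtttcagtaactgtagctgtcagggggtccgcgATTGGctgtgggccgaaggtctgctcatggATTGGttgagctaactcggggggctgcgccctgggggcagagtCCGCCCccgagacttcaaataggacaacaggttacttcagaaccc
The Sparc window held none of the motifs and 4 CG pairs. The Slc2a1 and Kdr windows held 2 GGGCGG matches each, with 13 and 16 CG pairs. The Cldn5 window held 2 CCAAT matches, 1 GGGCGG match and 12 CG pairs.

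The libraries held 11728908, 13035808 and 10772492 reads assigned to genes, which limits counting error to 4.23% of the mean for the median gene among the 8746 entries with a mean of at least 10 CPM (read counts scaled to a common library size, with TMM factors between 0.975 and 1.02). Of all entries, 6089 had no read in any control. Each pair of libraries differed by more than the counting of reads allows, with a chi-square per degree of freedom of 15.9 to 30.5. Control 3 stood apart from the other two in many single genes, and results that turn on it are given with and without it. The 5 endothelial markers Pecam1, Cdh5, Slc2a1, Sparc and Kdr stood between the 96.7th (Cdh5) and the 99.9th (Sparc) percentile of all entries. Markers of erythroid cells, macrophages and platelets were present as well and are given with their values below. In bulk samples, fewer cells of a type and less RNA per cell cannot be told apart.

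A mean of at least 1 RPKM was reached by 11174 of 22958 entries, which is 48.7%. Of these, 5301 lay between 1 and 10 RPKM, 4762 between 10 and 100, 1034 between 100 and 1000, and 77 at 1000 or more. Those 77 entries held 14.97% of all reads. The 100 highest entries held 35.9%, 35.6% and 34.8% of the summed RPKM in controls 1, 2 and 3, a mean of 35.5% ± 0.587 (SD, n = 3). The 3 libraries were therefore alike in how strongly the transcriptome was concentrated.

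The top of the ranking was made of cytoskeletal, ribosomal and housekeeping genes. Actb, which encodes beta-actin, was the highest entry at 21304.8, 21699.8 and 19247.8 RPKM in controls 1 to 3. Tmsb4x, which encodes the actin-binding peptide thymosin beta-4, followed at 15582 ± 2152 RPKM (SD, n = 3). Both were slightly lower in control 3 than in the others. Among the other 23 of the 25 highest were Rpl32 at 5055 ± 246, Rps14 at 3940 ± 168 and Pkm2, which encodes pyruvate kinase, at 3083 ± 225 RPKM.

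Ranks at the very top depend on the length by which the authors divided. The length implied by reads and RPKM was a median 0.980 of the longest matching transcript over 11038 expressed entries, but it was under 0.5 of it for 971 of them (8.80%) and for 46 of the 100 highest. Ubb and Actg1 (ubiquitin and gamma-actin), Ptma (prothymosin alpha), Gm1821 and Tuba1b were among these, with implied lengths at 0.07 to 0.18 of the transcript. Genes of this kind often have near-identical copies elsewhere in the genome, and their RPKM is uncertain. With only entries at a share of at least 0.5 counted, the order began Actb, Tmsb4x, Rpl32, Rps14, Pkm2, and the first of the 5 markers was Sparc.

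The 5 endothelial markers differed in level by over 10-fold. Sparc, which encodes a collagen-binding glycoprotein of the matrix, was at 2057, 2143 and 2196 RPKM (2132 ± 70.5), rank 28 of all entries. Slc2a1 was at 1345, 1497 and 1378 RPKM (1407 ± 80.1), rank 47. The ranges of these 2 genes did not overlap.

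Pecam1, the adhesion molecule used for the sort, was at 377, 440 and 366 RPKM (394 ± 39.96). Kdr, the main VEGF receptor, was at 165, 200 and 196 RPKM (187 ± 19.1). Cdh5, which encodes the endothelial cadherin of adherens junctions, was at 105, 124.7 and 212 RPKM (147 ± 57.2). Pecam1 stood clear of the other 2, whereas the ranges of Kdr and Cdh5 overlapped because control 3 was high for Cdh5.

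All 24 pan-endothelial markers reached 1 RPKM and 15 reached 100, with a median of 142 RPKM, or the 96.6th percentile. The leading member was Egfl7, which encodes a secreted vascular matrix protein, at 1010, 825 and 1013 RPKM. Cd34, a sialomucin of endothelial and blood progenitor cells, was at 883, 817 and 791 RPKM, and Esam, an endothelial adhesion molecule, at 687, 644 and 661. The ranges of Egfl7 and Cd34 overlapped and that of Esam lay below both. Emcn (endomucin), Ecscr and Ramp2, a subunit of the adrenomedullin receptor, followed at means of 638, 513 and 440 RPKM.

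**Figure D1:**
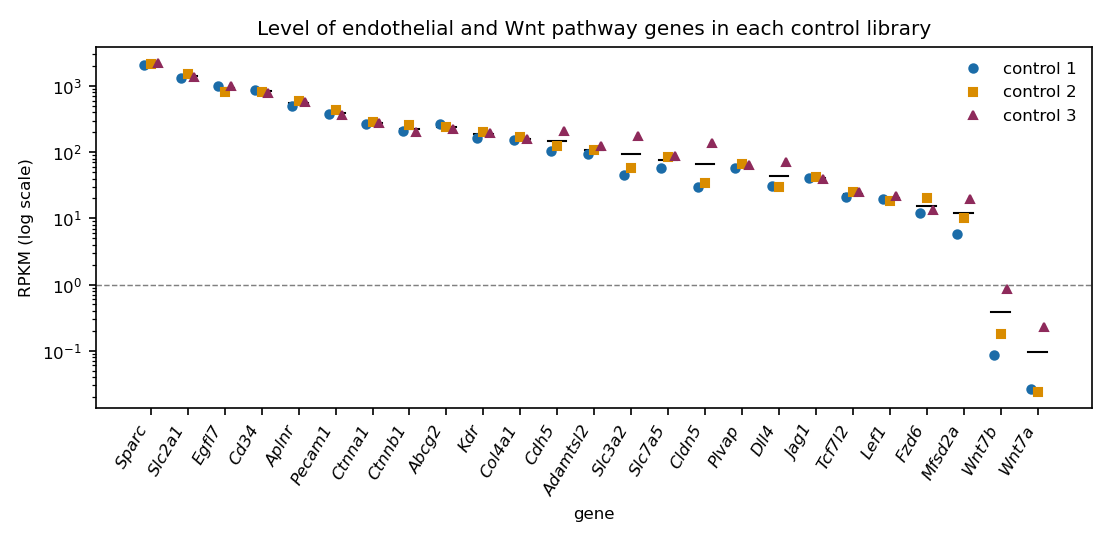
RPKM (log axis) of 25 endothelial, barrier and Wnt pathway genes in controls 1, 2 and 3, with a black bar at the mean and a dashed line at 1 RPKM. Sparc and Slc2a1 lie above 1000 RPKM in every library, Cldn5 and Slc3a2 spread with control 3 on top, and the ligands Wnt7a and Wnt7b lie under 1 RPKM.

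Transcription factors had a lower median than the pan-endothelial markers. Of 33 endothelial transcription factors, 30 reached 1 RPKM and 3 reached 100, with a median of 12.5 RPKM. The ETS factors Ets1 (153, 245 and 146 RPKM), Fli1 (176, 198 and 149) and Elk3 (113, 116 and 110) led. Ets1 and Fli1 overlapped, and Elk3 lay below both. Epas1, Mef2c and Lmo2 followed at 74.8 ± 9.15, 61.7 ± 3.23 and 58.7 ± 5.69 RPKM. Etv2 (an early inducer of the endothelial lineage), Prox1 (the lymphatic regulator) and Foxc2 had means under 1 RPKM. Etv2 was at 1.53, 0.362 and 0.263 RPKM in controls 1 to 3. Among the SoxF factors, Sox7 held 71.3% ± 2.34 of the summed RPKM, ahead of Sox18 and Sox17.

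Barrier transporters were led by Slc2a1 by a wide margin. Of 30 listed, 28 reached 1 RPKM and only Slc2a1 and Abcg2 reached 100. Abcg2, an efflux pump, was at 264, 245 and 221 RPKM, but its implied length was 0.43 of the transcript, so its level is uncertain. Slc38a3 (a glutamine transporter), Slc40a1 (the iron exporter ferroportin) and Slc7a5 (the light chain of the large neutral amino acid transporter) were at 91.8 ± 19.4, 80.1 ± 21.1 and 76.0 ± 16.2 RPKM, which overlapped each other. Slc3a2, the heavy chain that pairs with Slc7a5, was at 44.5, 58.4 and 175 RPKM, so the order of the 2 chains differed between libraries. Slco1a4, an organic anion transporter of the mature barrier, and Slc7a3 stayed under 1 RPKM.

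Within the facilitative glucose transporters Slc2a1 held 97.3% ± 0.120 of the summed RPKM of 11 members, and Slc2a3, the neuronal form, was next at 22.9, 24.8 and 23.0 RPKM. Slc16a13 led the 13 monocarboxylate transporters at 41.2, 34.6 and 37.9 RPKM, and Slc16a1, the lactate carrier of the mature barrier, was at 2.81 ± 0.109 RPKM. Single members dominated several other families. Adamtsl2, which encodes a secreted glycoprotein of microfibrils and is named in the study's title, was at 93.0, 109 and 122 RPKM and held 99.4% ± 0.102 of its family of 6. No other ADAMTS-like member reached 1 RPKM.

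Junction genes combined high catenins with few claudins. Ctnna1 (alpha-catenin), F11r (junctional adhesion molecule A) and Ctnnb1 (beta-catenin) were at 276 ± 11.997, 265 ± 21.3 and 221 ± 29.6 RPKM. Of 17 claudins only Cldn5 and Cldn12 reached 1 RPKM. Cldn5, the claudin that seals tight junctions of brain vessels, was at 30.0, 33.7 and 138 RPKM, and Cldn12 at 8.14, 5.47 and 6.74. Cldn5 led in every library, with 76.1% to 93.7% of the summed claudin RPKM, but its mean of 67.3 RPKM was set by control 3 and was 31.8 without it. Cldn1, Cldn3, Cldn11, Cldn15, Cgn (cingulin) and Tjp3 were under 1 RPKM.

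All 15 genes of the fenestrated and vesicle list were expressed as well, with a median of 45.2 RPKM. This list is not specific to fenestrated endothelium. Aplnr, Emcn and Nrp1, among others, also stand in the pan-endothelial, tip cell, arterial or venous lists. Aplnr, the apelin receptor, was at 496, 586 and 573 RPKM, and Ptrf, which encodes cavin-1, at 299, 372 and 307. Plvap, the diaphragm protein of fenestrae that mature brain vessels lack, was at 57.2, 65.2 and 63.7 RPKM (62.0 ± 4.27). The range of Plvap lay inside that of Cldn5. Cav1 (caveolin-1) was at 98.5, 153 and 82.3 RPKM, and Nrp1, a VEGF and semaphorin co-receptor, at 179 ± 8.81.

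The VEGF receptor genes were above the 4 VEGF ligand genes given here. Kdr held 72.8% ± 2.42 of the summed RPKM of the 3 VEGF receptors, with Flt4 at 38.6 ± 6.32 and Flt1 at 28.2 to 33.7 RPKM. Tie1 and Tek, the receptors of the angiopoietin pathway, were at 238 ± 20.3 and 128 ± 17.6 RPKM. Kcne3, a potassium channel subunit found in tip cells, was at 194, 164 and 194 RPKM. Of the ligand genes, Vegfc was at 5.38 ± 0.346 and Vegfb at 2.29 ± 1.39 RPKM, and Vegfa and Pgf had means under 1 RPKM.

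Notch ligands and receptors were at moderate levels. Notch1 was the leading receptor with 75.4% ± 2.90 of the summed RPKM, at 31.3, 33.7 and 42.7 RPKM. The ligands Dll4 (30.7, 30.2 and 70.6 RPKM) and Jag1 (40.4, 42.8 and 39.3) overlapped, and which one led depended on the library. Mfng, a glycosyltransferase that modifies Notch receptors, was the highest member of the pathway at 203 ± 8.97 RPKM.

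Arterial and venous genes were present side by side. All 15 arterial and all 10 venous genes reached 1 RPKM, with medians of 33.2 and 30.1 RPKM. Gja4, the connexin 37 gene of arteries, was at 328, 548 and 450 RPKM. Efnb2, the arterial ephrin ligand, was at 35.4, 39.5 and 24.7 RPKM, and its venous receptor Ephb4 at 24.1, 27.2 and 22.9, so their ranges overlapped. Nr2f2, a venous transcription factor, was at 29.7 ± 6.89 RPKM.

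Most components that receive a Wnt signal reached 1 RPKM and no ligand did. Of 31 receptors and transducers, 26 reached 1 RPKM. None of 20 Wnt ligand genes, Ndp (norrin) included, did so, and 7 had no read. The highest ligand was Wnt7b at 0.0856, 0.180 and 0.871 RPKM, and Wnt7a was at 0.0266, 0.0239 and 0.232. Both were highest in control 3, the library in which the neural markers Tubb3 and Fabp7 were also highest (values below), and the part of neural RNA in this was not tested.

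On the receptor side Tspan12, a tetraspanin co-receptor of norrin signalling, was at 85.7, 89.1 and 72.8 RPKM. Fzd6 led the 10 Frizzled receptors at 11.9, 20.2 and 13.5 RPKM, ahead of Fzd10 at 7.17, 7.44 and 7.72, without overlap. Fzd4, the receptor of norrin, was at 3.98 to 5.28 RPKM. Fzd2, Fzd5, Fzd7, Fzd8 and Fzd9 were under 1 RPKM.

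All 4 TCF/LEF factors, the DNA-binding partners of beta-catenin, were expressed. Tcf7l2 (21.0, 24.6 and 25.4 RPKM) and Lef1 (19.8, 18.2 and 21.97) overlapped and stood above Tcf7 (9.94, 16.6 and 10.9) and Tcf7l1. Of 21 Wnt target and feedback genes, 16 reached 1 RPKM. Ccnd1 (cyclin D1), Apcdd1 and Tnfrsf19 followed Adamtsl2 at 92.5 ± 20.3, 39.5 ± 8.80 and 24.6 ± 3.90 RPKM. Nkd2, Rnf43, Notum, Sp5 and Lgr5 were under 1 RPKM.

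Within the TGF-beta and BMP pathway, Id3, a target gene of BMP signalling, was by far the highest at 609, 629 and 843 RPKM. The endothelial type I receptor Acvrl1 was at 99.2 ± 6.05 RPKM. Of 30 members, 21 reached 1 RPKM, and 9 did not, among them Bmp2, Bmp6, Bmp7, Tgfb1, Tgfb3 and Smad6.

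The basement membrane genes described a simple matrix. Of 25 members, 18 reached 1 RPKM and 10 reached 100. Col4a1 was at 154, 170 and 159 RPKM and Col4a2 at 97.0, 104 and 97.2, and Col4a1 held 61.6% ± 0.371 of the summed RPKM of type IV collagen chains. Lama4, Lamb1 and Lamc1, the chains of laminin 411, held 95.7% ± 0.399, 97.7% ± 0.329 and 97.9% ± 1.52 of their chain families. Of these, Lamb1 was at 134 ± 12.1, Lama4 at 102 ± 12.5 and Lamc1 at 40.7 ± 5.05 RPKM. Sparcl1, Bgn (biglycan) and Nid1 (nidogen-1) stood between Sparc and Col4a1 at 317 ± 57.9, 288 ± 3.06 and 196 ± 23.0 RPKM. Lama2, Lama3, Lama5, Dcn, Col4a3, Col4a5 and Col8a1 were under 1 RPKM.

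Integrin chains that bind this matrix were at moderate levels, and 11 of 15 reached 1 RPKM. Itgb1, the beta-1 chain, was at 98.5 ± 10.1 RPKM. Itga5, the fibronectin receptor chain, was at 39.3, 38.4 and 59.7 RPKM, and Itga2b, the platelet chain, at 36.1, 34.2 and 51.6, and the 2 ranges overlapped. Itga6, a laminin receptor chain, was at 33.8 ± 1.70 RPKM.

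Most listed genes of glycolysis and respiration were expressed, several of them at high levels. Pkm2, Aldoa (aldolase A) and Ldha (lactate dehydrogenase A) were at 3083 ± 225, 1622 ± 223 and 1458 ± 178 RPKM, and 16 of 18 glycolysis genes reached 1 RPKM. Aldoc and Eno2, isoforms of brain tissue, did not. Gapdh and Eno1 were low in reads, at 14.9, 12.4 and 9.71 CPM and at 6.04, 4.89 and 5.45 CPM in controls 1 to 3. All 27 mitochondrial respiratory genes reached 1 RPKM, with Cox4i1 highest at 1406, 1383 and 1326 RPKM. Hk1 held 86.4% ± 3.34 of the hexokinases.

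Genes of cell division were expressed in all 3 libraries. All 23 DNA replication genes and all 21 mitosis genes reached 1 RPKM, with medians of 66.5 and 67.3 RPKM. Rrm2, a subunit of ribonucleotide reductase, was at 281, 195 and 218 RPKM, and Mcm3, a helicase subunit, at 218, 171 and 193. Ube2c, a ubiquitin-conjugating enzyme of mitosis, was at 275, 219 and 212 RPKM, and Top2a, topoisomerase II alpha, at 151, 148 and 153. For Rrm2, Mcm3 and Ube2c control 1 was highest. Imprinted growth genes were also high, with Mest at 643 ± 58.9, H19 at 641 ± 115 and Igf2 at 419 ± 13.4 RPKM.

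**Figure D2:**
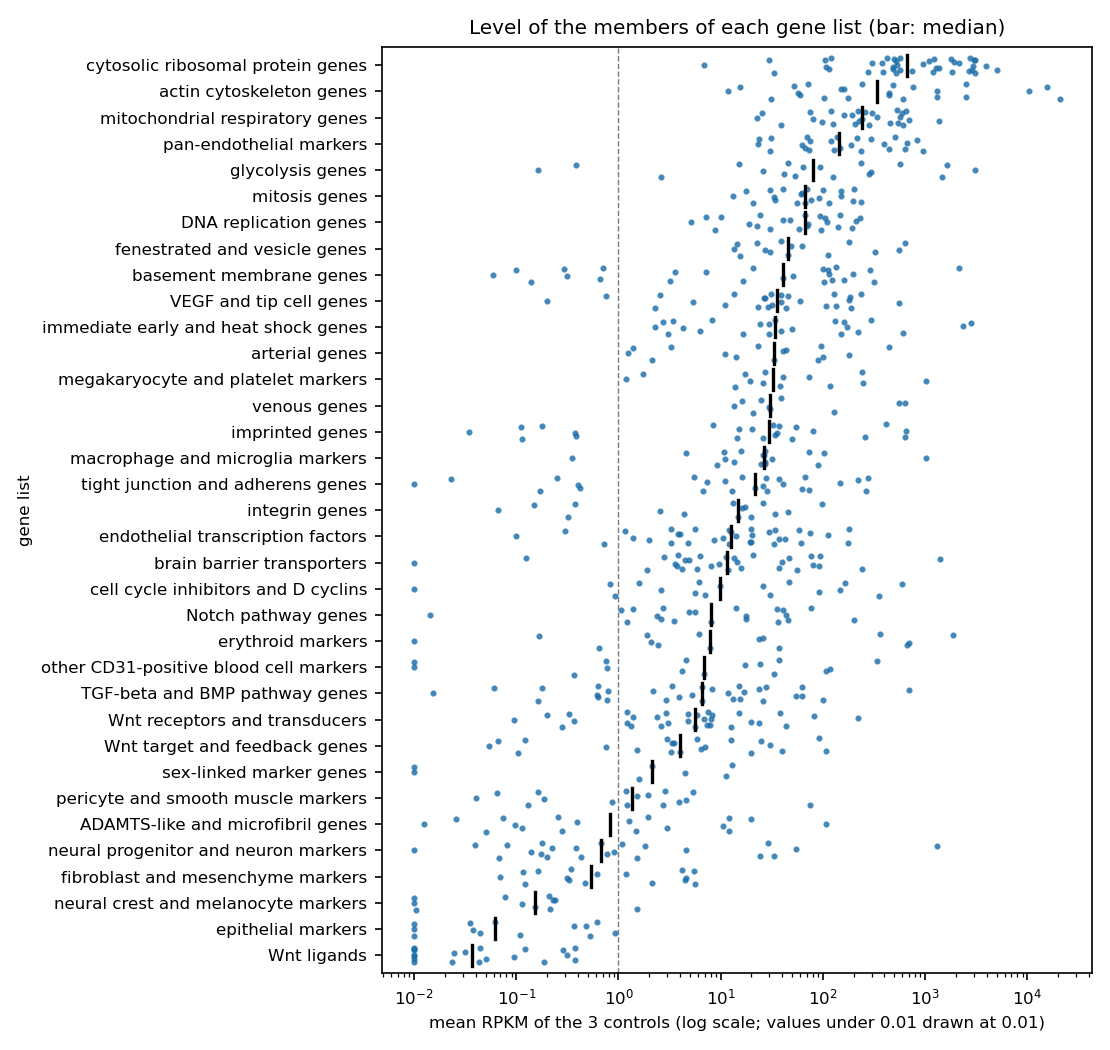
Mean RPKM over the 3 controls (log axis) of every member of 35 gene lists, 1 point a gene, with a black bar at the list's median and a dashed line at 1 RPKM. Medians run from 661 RPKM for cytosolic ribosomal protein genes to 0.0371 RPKM for Wnt ligands and are 142 RPKM for pan-endothelial markers.

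Silent gene groups bounded the background. None of 40 Hox entries reached 1 RPKM and 32 had no read. Of 1122 olfactory receptor entries 1 reached 1 RPKM, a pseudogene entry at 2.64 RPKM, and 1084 had no read. None of 13 epithelial markers reached 1 RPKM. Sox10 and Foxd3, factors that define neural crest, were under 1 RPKM as well.

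Genes of other cells in or near vessels were measured next, because their amounts differed between the libraries. Summed RPKM of 15 erythroid markers was 1877, 3721 and 5575 in controls 1, 2 and 3, and 12 of the 15 reached 1 RPKM. Hbb-y, the embryonic beta-like globin of primitive red cells, was at 683, 2031 and 2963 RPKM, Hba-x at 252, 545 and 1304, and Hbb-bh1 at 128, 361 and 592. All 3 were lowest in control 1 and highest in control 3. Not every listed member had that order. Car2 had the opposite one, at 1396, 1137 and 1076 CPM in controls 1 to 3. Gata1 was at 46.6, 36.4 and 46.5 CPM, and Tfrc at 130, 220 and 197 CPM. Adult Hba-a1, which has a near-identical copy, was listed at 0 in every library. Hbb-y kept 83.0% ± 0.761 of the summed beta-like globin RPKM although its level differed 4.13-fold.

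Macrophage and microglia markers reached 1 RPKM for 17 of 18 genes, with sums of 1489, 1670 and 1482 RPKM that were mostly Pf4. C1qb, a complement subunit, was at 86.3, 146 and 78.5 RPKM, Csf1r, the receptor of macrophage growth factor, at 20.5, 42.4 and 19.1, and Cx3cr1, the fractalkine receptor, at 20.7, 46.6 and 27.8. These were highest in control 2. Cd14, a co-receptor for bacterial lipopolysaccharide, differed from them, at 47.4, 26.5 and 3.87 RPKM.

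Several platelet lineage markers were high. All 14 reached 1 RPKM and 4 reached 100, with sums of 1868, 1827 and 1980 RPKM that were mostly Pf4. Pf4 (platelet factor 4) was at 1012, 970 and 1097 RPKM, rank 75 of all entries, Ppbp at 249.2 ± 20.5, Clec1b at 242 ± 24.8 and Gp9, a subunit of the von Willebrand factor receptor, at 116 ± 17.1. Pf4 therefore stood above Pecam1 itself. Of the 12 tested, 1 was over 2-fold, Gfi1b, a transcription factor of the lineage, at 11.1, 9.57 and 20.7 RPKM.

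Neural and mesenchymal markers were mostly low, and several were highest in control 3. Of 23 neural markers 9 reached 1 RPKM, Vim, which endothelium shares, among them. Tubb3, the neuronal tubulin, was at 9.00, 22.3 and 69.1 RPKM, and Fabp7, a fatty acid binding protein of radial glia, at 5.204, 12.3 and 54.9. Both were highest in control 3 and lowest in control 1. Pax6 (0.962, 1.76 and 11.1 CPM), Mtap2 (2.97, 5.73 and 16.1 CPM) and Nes (155, 169 and 211 CPM) had the same order. Other members did not, among them Stmn2 (56.4, 64.3 and 44.5 RPKM) and Vim. Sox1, Sox2 and Sox3, factors that define neural progenitors, had means under 1 RPKM, with Sox2 at 0, 0.994 and 3.99 CPM. Of 16 mesenchymal markers 7 reached 1 RPKM, with sums of 16.0, 26.0 and 48.2 RPKM, and Col3a1 was at 1.90, 3.03 and 8.37.

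Among 16 pericyte and smooth muscle markers 10 reached 1 RPKM, with sums of 88.3, 110 and 107 RPKM. Most of this was Mcam, which endothelium shares, at 74.96 ± 6.57 RPKM. Pdgfrb, the defining pericyte receptor, was at 1.55, 2.10 and 4.89 RPKM, and Cspg4, Des and Myh11 were under 1 RPKM.

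**Figure D3:**
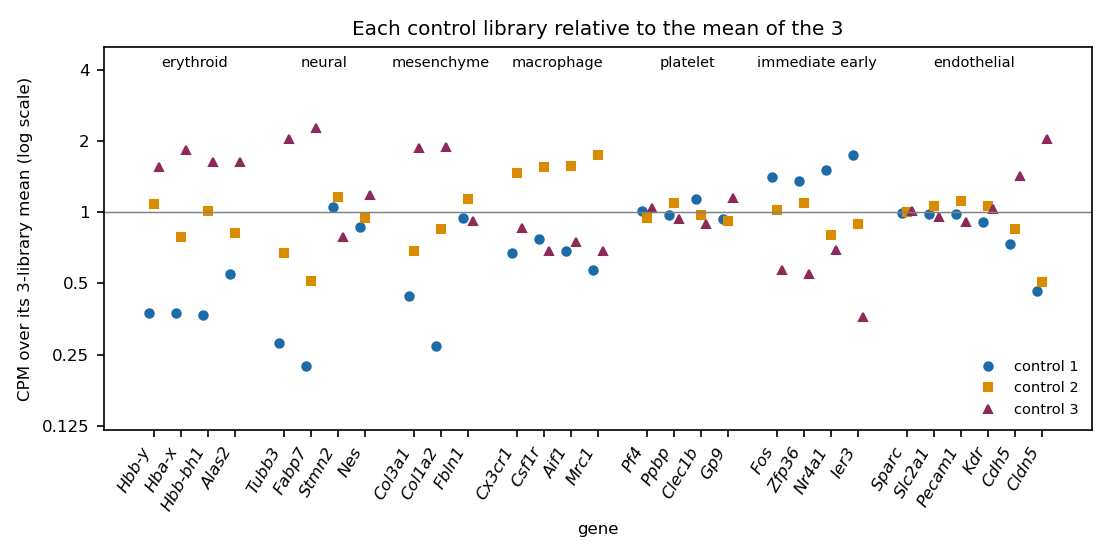
CPM of each control library divided by the mean of the 3 (log axis) for genes of 7 groups, with a line at 1. The 4 platelet genes drawn and Sparc lie close to the line. Of the genes drawn, the erythroid ones, Tubb3, Fabp7 and Nes are highest in control 3. The macrophage genes drawn are highest in control 2 and the immediate early genes drawn in control 1.

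Sex-linked genes differed between the libraries. Ddx3y, a Y-linked RNA helicase gene, was at 0, 25.4 and 8.75 RPKM, and Eif2s3y, a Y-linked translation factor gene, at 0, 26.9 and 11.8. Xist, the RNA of the inactive X chromosome, was at 5.81, 2.12 and 5.40 RPKM. Control 1 thus had 0 reads of these Y-linked genes, which allows up to 0.256 CPM each by counting error alone, and the other 2 libraries had both Y-linked and Xist reads.

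The spread between libraries was modest for most genes. Over the 8746 entries with a mean of at least 10 CPM, the median coefficient of variation (CV, SD over mean) was 12.3%, with quartiles of 7.75% and 18.8%, and the median ratio of the highest to the lowest library was 1.27. The common biological coefficient of variation of edgeR was 19.3% over all 3 controls and 14.7% without control 3. The ratio was over 2-fold for 475 entries, or 5.43%, and over 10-fold for 15. The 3 libraries differed beyond counting noise (chi-square test, Benjamini-Hochberg adjusted p under 0.05) for 6649 entries, or 76.0%. Without control 3 the count over 2-fold was 103 and the count beyond counting noise 4208.

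Spread fell as level rose. The median CV was 15.2% for entries of 1 to 10 RPKM, 11.496% for 10 to 100, 10.2% for 100 to 1000 and 9.58% for 1000 or more. Sparc was among the steadiest genes of all, with 4902, 4958 and 4988 CPM and a CV of 0.875%. Of the genes with at least 50 CPM, those with the smallest CV included Tmem47, Riok3, Tox4, Smarce1 (a chromatin remodelling subunit) and Pdgfb, the endothelial growth factor that recruits pericytes. Pdgfb was at 31.4, 32.1 and 32.7 RPKM. The CVs of these named genes, 0.217% to 0.509%, lay below the 2.46% to 3.96% that counting of reads alone gives. Their place at the bottom of the CV order therefore does not show that they were steadier than other genes.

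**Figure D4:**
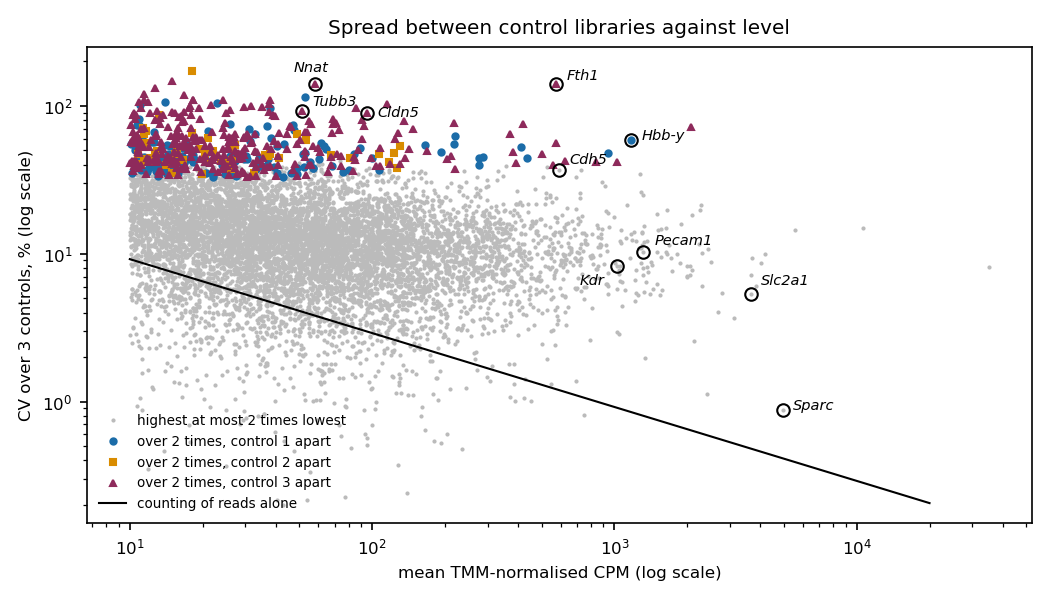
Coefficient of variation over the 3 controls against mean CPM (both axes log) for 8746 entries, coloured where the highest library was over 2 times the lowest and by the library that stood apart; the black line is the value that counting of reads alone gives. Most coloured points are those of control 3, and Sparc lies far below Cldn5, Fth1 and Nnat.

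Control 3 was the library that stood apart most often. Of the 475 entries over 2-fold it lay farthest from the middle value in 292 (61.5%), 218 of them high and 74 low. Control 1 did so in 135 (28.4%) and control 2 in 48 (10.1%). Control 3 had a Pearson r across genes of 0.955 with control 1 and 0.962 with control 2, and those had one of 0.977 with each other, on log2 (CPM + 1). Genes are not independent replicates, so these are descriptions.

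After Ddx3y, the largest ratios among genes with at least 50 CPM were found in named genes of several kinds. Nnat, an imprinted gene of neural and endocrine cells, was at 7.70, 11.4 and 129 RPKM, a 16.6-fold ratio of CPM. Fth1, the ferritin heavy chain, was at 127, 151 and 1940 RPKM, a 14.5-fold ratio. Both were close in controls 1 and 2 and high in control 3.

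The same order was found for Bsg, which encodes basigin, a surface protein of barrier endothelium, at 33.3, 31.7 and 181 RPKM, and for Atp5d, a subunit of the ATP synthase, at 39.97, 38.8 and 198. Scarb1, a lipoprotein receptor, was at 26.0, 31.9 and 106 RPKM. A pair of chemokine genes went the other way: Ccl4 was at 132, 146 and 25.3 RPKM and Ccl3 at 78.3, 89.1 and 20.8. Rpl3 was at 931, 466 and 192 RPKM, but its implied length was 0.13 of the transcript, so its level is uncertain.

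Which lists held variable genes can be read against the 5.43% of all entries over 2-fold. That share fell with level, from 8.05% at 1 to 10 RPKM to 4.42% at 10 to 100 and 2.62% at 100 to 1000. It is therefore only a rough reference for lists that differ in level. None of the tested basement membrane (18), integrin (10), fenestrated (15), Wnt target (15), DNA replication (23), mitosis (21), glycolysis (15) or actin (24) genes was over 2-fold. For a single list of this size, finding none does not show that its members were steadier than other genes. The pan-endothelial list had 2 of 24, Cldn5 (4.39-fold) and Eng (2.43-fold), the coreceptor endoglin. Without control 3 none of the 24 was, and 2 and 1 were without control 1 and control 2. Over all entries the counts also fell, to 103 of 8616 without control 3, 295 of 8808 without control 1 and 386 of 8714 without control 2. List counts with a control left out, here and below, are to be read against these.

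Of the tested barrier genes, 5 of 26 transporters and 5 of 19 junction genes were over 2-fold. Slc38a5, an amino acid transporter, was at 7.42, 21.4 and 33.2 RPKM, Mfsd2a, the lipid transporter of the barrier, at 5.85, 10.2 and 19.6, and Spock2, a proteoglycan, at 3.11, 8.24 and 17.2. All 3 were lowest in control 1 and highest in control 3, as was Lsr, a tricellular junction protein, at 7.04, 13.2 and 18.3. Abcc4, an efflux pump, had the opposite order, at 8.39, 5.55 and 3.74, and Ocln (occludin) and Jam2 were highest in control 2. Without control 3 the counts were 2 of 26 and 1 of 19, without control 1 they were 2 and 3, and without control 2 they were 5 and 3.

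Of 27 mitochondrial respiratory genes 4 were over 2-fold, and 4, 2 and 0 were without controls 1, 2 and 3 in turn. Cox5b was at 43.2, 38.9 and 209 RPKM, Atp5b at 203, 200 and 510, and Cox8a at 171, 152 and 338. These subunits of cytochrome c oxidase and ATP synthase were highest in control 3.

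Immediate early and heat shock genes had 8 of 18 tested members over 2-fold. Fos, an AP-1 subunit, was at 408, 304 and 173 RPKM, Zfp36, an mRNA decay factor, at 289, 242 and 124, Nr4a1, a nuclear receptor, at 256, 140 and 124 and Ier3 at 228, 119 and 49.2. These were highest in control 1 and lowest in control 3. Control 1 was also highest for Atf3, Dusp1, Fosb and Egr2. Other members differed. Jun (72.9, 88.6 and 71.1 CPM) and Egr1 (105, 113 and 57.1 CPM) were highest in control 2, and Dnajb1 (94.0, 59.6 and 114 CPM) in control 3. Without controls 1, 2 and 3 in turn the count over 2-fold was 3, 7 and 2.

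Transcript GC content was set beside these differences, using the longest matching GENCODE transcript of 8684 of the 8746 entries (99.3%). The 217 matched entries high in control 3 had a median GC content of 54.4%, against 49.7% over all 8684, and 47.0% of them had a GC content of at least 55%, against 20.9% of all. Medians were also above that of all entries for the 56 high in control 1 (52.7%) and the 14 low in control 2 (52.3%). They were lower for those low in control 1 (46.8%), high in control 2 (45.8%) and low in control 3 (49.3%). The share of entries over 2-fold and high in control 3 was 0.253% below 40% GC, 1.68% from 45% to 50%, 5.21% from 55% to 60% and 8.87% at 60% or more. It rose at every step of the 6 classes.

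Cldn5 (60.5% GC), Atp5d (61.1%), Bsg (57.6%), Eng (57.4%) and Nnat (57.0%) all lay in the upper classes. Other genes high in control 3 did not, among them Fth1 (53.4%), Slc3a2 (53.4%), Atp5b (51.6%), Cox5b (49.0%) and Fabp7 (41.4%). The small shifts of whole classes were shared by more than one library: the median log2 difference of control 3 from the mean of the other two ran from -0.22 below 40% GC to 0.11 at 60% or more, and that of control 1 from control 2 ran from -0.14 to 0.14. Across genes the Pearson r of GC content was 0.24 with the difference of control 3 from the other two and -0.36 with that of control 2. After centring each library within GC classes, an alternative chosen after seeing the data, 478 entries were over 2-fold and control 3 stood apart in 293, and 434 of the 478 were over 2-fold without centring too. What produced the pattern was not tested.

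**Figure D5:**
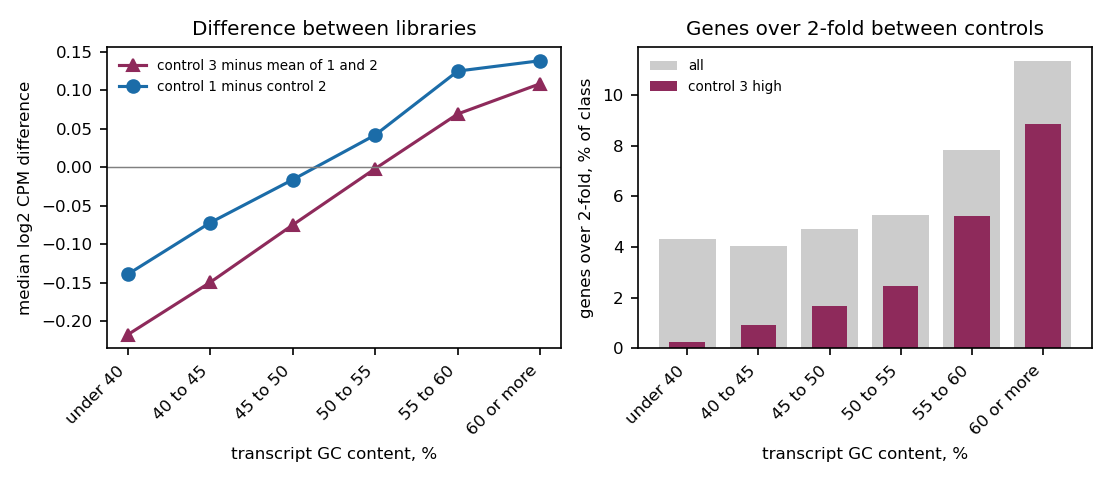
Left, median log2 CPM difference between libraries by transcript GC class; right, percent of entries of each class over 2-fold between controls (grey) and those high in control 3 (purple). The purple bars rise from 0.253% below 40% GC to 8.87% at 60% or more.

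Promoter composition differed between classes of level. Genes with a single promoter in the RefSeq table could be matched to 12479 entries, with windows of 300 bases from 250 before to 50 after the start. The observed-to-expected ratio of CG pairs had a median of 0.16 for the 3166 genes without reads, 0.45 under 1 RPKM, 0.76 from 1 to 10, 0.81 from 10 to 100 and 0.80 at 100 or more. The ratio rose from genes without reads to those under 1 RPKM and again to those of 1 to 10 RPKM, with little change above that.

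GGGCGG, the GC box, was held by 13.01% of promoters without reads and 44.6% of those under 1 RPKM. In the 3 expressed classes it was held by 66.4%, 68.2% and 68.0%. Its share was 48.0% of the 12479 matched promoters and 35.7% of all 32851 in the table, which include unmatched ones. CCGGAAGT, an ETS-type motif, rose from 0.537% without reads and 2.28% under 1 RPKM to 7.20%, 10.78% and 12.3%. Its share was 5.36% of the matched promoters and 3.89% of all. TATAAA had the opposite course, with 28.5% without reads, 13.1% under 1 RPKM, and 6.10% and 6.20% in the middle classes. At 100 RPKM or more it was 11.1%. CCAAT changed little, from 36.7% to 44.3%. TGACGTCA was held by 0.853% of promoters without reads, by 2.05% under 1 RPKM and by 3.95% at 100 RPKM or more. A match describes letters in a window, not a site in use.

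Promoter composition is given for some lists, which differ in level. The 11 matched pan-endothelial promoters had a median CG ratio of 0.29, beside 0.22 for 10 macrophage and 0.21 for 12 platelet markers, and 4 of the 11 held GGGCGG. The 16 matched mitosis promoters had a median of 0.95 and 14 of them held CCAAT, and the 24 ribosomal protein promoters had a median of 0.93. The 14 matched Wnt ligand promoters, all of genes under 1 RPKM, had a median of 0.75, so a high ratio was also found without expression. These are descriptions of lists, given without a test.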

How the data were processed

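The labels name an RNeasy Micro Kit for RNA and a SMARTer Ultra Low Input kit for cDNA. The authors deposited a whole-number read count and an RPKM value for each of 22958 RefSeq entries per library, per the file headers. Bowtie and mm9 are named without versions, per the submitters' processing notes. The counting program and strand setting: not given in the sources used here. Levels are the deposited RPKM, as mean ± SD over 3 libraries. Spread was computed from the counts as CPM scaled by TMM (edgeR 4.0.16, R 4.3.3), for entries with a mean of at least 10 CPM. Departure from counting noise was a chi-square test per gene with Benjamini-Hochberg adjustment at 0.05, tested on simulated data. DESeq2 1.42.0 size factors were an alternative.

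The members and lists were chosen with earlier results of these data known. Older symbols were added for genes first not found, and 722 of 723 list places were found. Named genes were the 5 markers, the 25 highest, up to 6 leading members and the members under 1 RPKM of each of 35 lists, the leading 2 of 21 families, the 15 largest ratios and 15 smallest CVs above 50 CPM, sex-linked markers and list members over 2-fold. Sox17, Flt1, Vegfb, Vegfc, Fzd4, Tcf7 and Slc16a1 fall outside this rule and were named after their values were seen. Gapdh, Eno1, Car2, Gata1, Tfrc, Jun, Egr1 and Dnajb1 were also named after their values were seen. The length share minimum of 0.5 and the GC classes were set after seeing the data. Reads of genes that overlap on opposite strands cannot be told apart. For a symbol with several entries, the one with most reads was used. Gene coordinates on mm9 are not given, since the reference used here is of another build. Single genes that the rule would name are not reported here.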

Additional observations from a re-analysis of the deposited data

How the results depend on the processing

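The count of entries at 1 RPKM or more stayed within 1.5 times its value under every alternative run, from 10067 to 12207, and so did the median CV, from 8.62% to 14.9%. The share of the 100 highest entries was 35.5% of RPKM, 31.3% when only entries with a length share of at least 0.5 were counted (chosen after seeing the data), and 21.9% of reads. The count over 2-fold was 475, 1834 with a minimum of 1 CPM and 102 with a minimum of 50 CPM, which tests fewer genes. With a control left out in turn it ranged from 103 (without control 3) to 386 (without control 2), and was 295 without control 1. The count beyond counting noise was 6649, 3573 with a minimum of 50 CPM, and 4208 (without control 3) to 5197 with a control left out. DESeq2 size factors gave 474 and 6638, and total reads 504 and 6538. Rescaling by TMM factors moved none of 20 named levels by as much as 1 SD. With factors between 0.975 and 1.02 a mean could hardly move, so no stability is read from this. Leaving 1 of 3 libraries out cannot move a mean by 1 SD, so no stability is read from it. Levels of Cldn5, Fth1, Nnat, Bsg and Tubb3 fell to 31.8, 139, 9.54, 32.5 and 15.6 RPKM without control 3. No paired analysis was possible because no groups were compared. Depth limits entries under 3 reads, which is 0.230 to 0.278 CPM.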
